A study of Mus musculus with 54 samples.

Results

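Collagens are the triple-helical proteins that give connective tissue its strength, and their messages were followed here from whole mouse kidney through dissociated suspensions to single cells and nuclei. Members were all genes whose symbol is Col, a number, a and a number, which found 44 of the 33126 gene symbols in the series. The study asked how dissociation and storage change what is measured, in 54 libraries that form 18 groups of 3 (39 droplet-based 10x libraries and 15 bulk RNA-seq libraries). The first animals were male C57BL/6J littermates carrying AFAPIL.1DEL, aged 19 weeks, whose kidneys were digested either warm (37 °C, a commercial enzyme kit) or cold (on ice, a protease from Bacillus licheniformis). Their suspensions were profiled fresh, after cryopreservation and after methanol fixation by 10x v2, and as bulk RNA after ribosomal RNA depletion. The second were untreated male Balb/c littermates aged 18 weeks, used for fresh cold-dissociated cells and for nuclei by 10x v2 and for intact flash-frozen kidney by bulk RNA-seq with ribosomal RNA depletion. The third were untreated wild-type female Balb/c mice aged 15 weeks that had bred before, used for cold-dissociated cells (fresh and cryopreserved) and nuclei by 10x v3 and, by poly(A) bulk RNA-seq, for intact kidney and cold suspension. Nuclei came from flash-frozen kidney in 3 ways: sorted after 3 washes spun at 500 g (SN_FANS_3x500g), sorted after 1 wash spun at 2000 g (SN_FANS_1x2000g), or cleaned over sucrose (SN_sucrose). The renal capsule, which is rich in collagen, had been removed from the kidneys. The C57BL/6J and the male Balb/c animals share sex, 10x chemistry and ribosomal RNA depletion but differ in strain, the AFAPIL.1DEL allele and age, and in bulk as suspension and intact kidney. Both Balb/c sets share the strain but differ in sex, age, breeding, chemistry and bulk preparation. By the paper's methods bulk read length also differed between all 3 sets, as did the number of genes listed for bulk. The paper states that the work was done in 3 batches at different times, with the mice available then, so time differs as well. The factors that differ between a pair of sets cannot be told apart, and each test was run within a set.

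Fibrillar collagens (types I, II, III, V, XI, XXIV and XXVII) form the banded fibres of the interstitium and are made mainly by fibroblasts and other stromal cells. Type IV collagen forms the sheet of every basement membrane. Its chains α1 and α2 are found in nearly all of them, while α3, α4 and α5 form the mature network of the glomerular filter, and faults in those genes cause Alport syndrome. The other families are the beaded filaments of type VI, the FACIT collagens that sit on the surface of fibrils (types IX, XII, XIV, XVI, XIX and others), the multiplexins XV and XVIII of basement membrane zones, transmembrane collagens, and short-chain network collagens such as type VIII.

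The type IV genes lie in head-to-head pairs, transcribed away from one another, and the members of each pair are compared below. By GENCODE vM21 on GRCm38 the start sites of Col4a1 and Col4a2 lay 21 bp apart on chromosome 8, those of Col4a3 and Col4a4 72 bp apart on chromosome 1, and those of Col4a5 and Col4a6 1309 bp apart on chromosome X. The whole stretch between the starts of Col4a3 and Col4a4 (chr1:82586850-82586920, minus strand as printed), shown because this pair is the one of the glomerular filter, had a GC content of 69.0%. The 250 bases before the start of Col1a2, Col3a1 and Col6a3 are given as well, since their levels are followed through bulk and class results below. Sequences are from RefSeq on GRCm38.p6, 5′ to 3′ on the gene's strand, and capitals mark TATAAA (the TATA box core), CCAAT and GGGCGG (the GC box), each searched on both strands.
Col4a3/Col4a4 between the starts: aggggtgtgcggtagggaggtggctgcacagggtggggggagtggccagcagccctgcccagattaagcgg
Col3a1 (chr1:45311288-45311537, plus strand): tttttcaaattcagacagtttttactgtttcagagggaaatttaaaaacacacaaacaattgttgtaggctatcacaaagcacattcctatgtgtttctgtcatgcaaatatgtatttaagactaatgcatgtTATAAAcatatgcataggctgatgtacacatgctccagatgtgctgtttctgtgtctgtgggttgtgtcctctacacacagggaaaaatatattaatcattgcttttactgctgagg
Col1a2 (chr6:4505368-4505617, plus strand): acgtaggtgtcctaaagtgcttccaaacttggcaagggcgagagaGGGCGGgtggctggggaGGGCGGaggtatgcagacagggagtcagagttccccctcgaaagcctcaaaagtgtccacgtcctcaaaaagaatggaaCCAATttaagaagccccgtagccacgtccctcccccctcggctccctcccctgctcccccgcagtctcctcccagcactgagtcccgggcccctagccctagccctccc
Col6a3 (chr1:90843972-90844221, minus strand): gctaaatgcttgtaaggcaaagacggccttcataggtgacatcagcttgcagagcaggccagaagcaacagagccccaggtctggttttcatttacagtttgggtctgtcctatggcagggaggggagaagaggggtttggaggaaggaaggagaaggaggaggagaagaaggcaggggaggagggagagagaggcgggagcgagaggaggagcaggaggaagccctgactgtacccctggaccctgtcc
The Col3a1 window held 1 TATAAA, the Col1a2 window held 1 CCAAT and 2 GGGCGG, and neither the Col6a3 window nor the short stretch between Col4a3 and Col4a4 held any of them. Of the 44 genes 35 were found in the promoter table, with 38 windows, of which 5 held TATAAA, 13 CCAAT and 22 GGGCGG. Among all 32851 windows of the same length the shares were 12.4%, 33.9% and 32.7%. A match describes the letters only, and windows without one say nothing of the factors that act there.

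Bulk libraries held 2326998 to 31093949 counts and 10x libraries 983522 to 35170947 unique molecular identifiers (UMIs) in 782 to 9308 barcodes, with a median of 343 to 3893 UMIs per barcode. Any 2 of the 10x libraries from the same set of animals shared at most 1.784% of the smaller one's barcodes. In 10x files most genes seen in fewer than 10 barcodes of a library stood at 0, so a 0 there does not tell a rare message from an absent one. The groups listed between 16 and 44 of the members, and the fewest were listed by the cryopreserved and methanol-fixed cold cells of C57BL/6J. Among bulk libraries male intact replicates 2 and 3 held the fewest counts (2326998 and 4888491) and the female intact libraries the most (29097780 to 31093949). The study used kidneys from 3 mice in each experiment, so p-values within a set measure the spread between these few animals and their libraries.

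Female intact kidney was led by type IV and type XVIII collagen. Collagen genes took 0.223% to 0.503% of all counts in the 15 bulk libraries. Genes were compared roughly in CPM (counts per 1000000 counts of the library) per kilobase of exon. The exon length was the union over all annotated transcripts of a gene, which can exceed that of a single message. On this scale the female intact kidneys held Col4a3 at 56.7 ± 2.6 (SD, n = 3), Col4a1 at 52.7 ± 3.9, Col18a1 at 49.1 ± 4.5, Col4a4 at 46.8 ± 1.7 and Col4a2 at 38.3 ± 2.7. Below these 5 came Col4a5 at 11.8 ± 0.59 and the fibrillar Col27a1 at 10.5 ± 1.9. In the cold suspension of the same animals' set Col18a1 led at 59.9 ± 3.9 CPM per kb, with Col4a3 at 42.0 ± 2.8, Col4a4 at 41.9 ± 0.41 and Col4a1 at 41.8 ± 2.4. By share of the collagen counts, type IV took 67.1% to 69.1% in intact kidney and 60.5% to 63.0% in cold suspension, type VI 1.53% to 2.11% and 0.372% to 0.577%, and the fibrillar class 11.01% to 12.6% and 14.6% to 16.3%. Male intact kidney differed in make-up, with Col4a3 at 81.0 ± 20.1 CPM per kb, Col18a1 at 31.2 ± 6.8 and Col1a1 at 23.3 ± 16.9, and with 63.8% to 70.6% of the collagen counts from type IV, 10.9% to 19.99% from the fibrillar class and 6.45% to 7.40% from the multiplexins, which held 13.04% to 16.1% in female intact kidney.

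The comparison of intact kidney with cold suspension in female Balb/c mice asks what dissociation changes. Higher in intact kidney were 4 of 4 type VI, 5 of 11 fibrillar and 3 of 5 FACIT chains tested, from a log2 difference of 2.83 for Col6a6 to 0.34 for Col12a1. Of 6 type IV chains 4 were higher by at most 0.45, and 4 members were higher in the suspension. Of the 44 members 35 passed the filter on low counts. By edgeR's quasi-likelihood test with Benjamini-Hochberg adjustment over 16538 genes, 18 were higher in intact kidney (12.1% of all genes tested) and 4 were higher in cold suspension (7.91% of all genes). The median log2 difference (intact minus cold) was 0.34 over the 35 collagens and -0.0029 over all genes. Beyond a log2 difference of 2 there were 6 collagens higher in intact kidney, against 1.45% of all genes, and 0 higher in suspension, against 0.230%. The libraries of the groups did not overlap for 19 of the 35 collagens with intact kidney above and 4 with it below, against 36.5% of all genes. The simulated data for this comparison recovered 98% of genes changed by a log2 of 2 and 86% of those changed by 1. In a bulk sample, fewer cells of a type and less RNA per cell cannot be told apart.

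**Figure D1:**
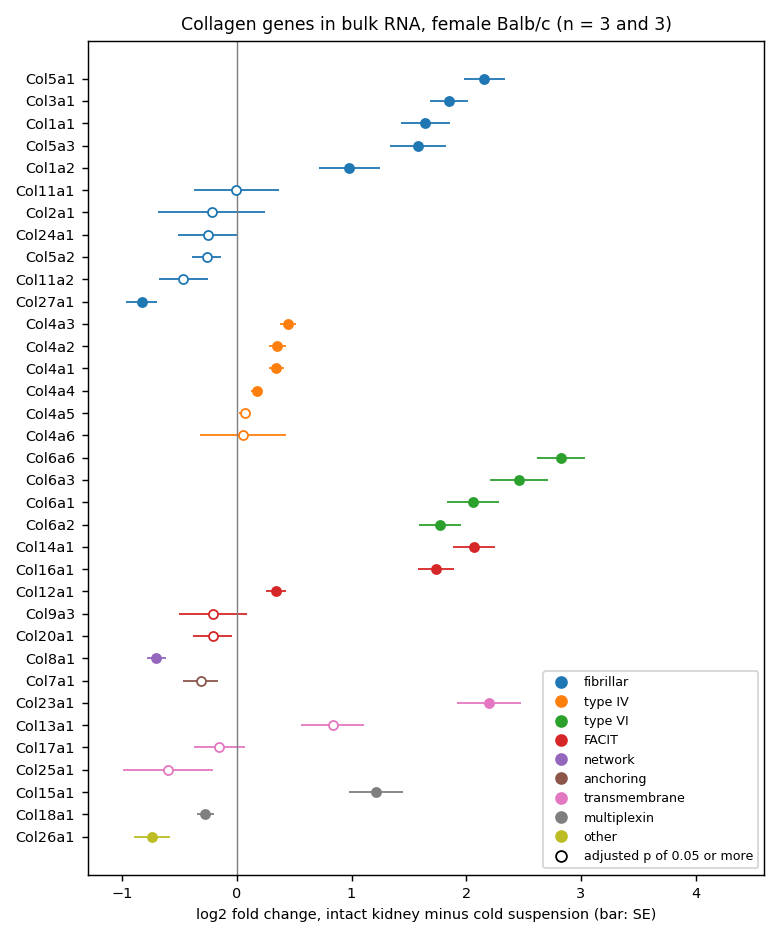
Log2 difference in CPM (intact kidney minus cold suspension, female Balb/c, 3 libraries each) for the 35 collagens tested, with bars of 1 standard error, coloured by structural class; open circles did not pass an adjusted p of 0.05. Type VI and fibrillar chains reach up to 2.83, the type IV chains lie between 0.05 and 0.45, and Col27a1, Col26a1, Col8a1 and Col18a1 lie below 0.

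Among fibrillar collagens 5 of 11 tested were higher in intact kidney and 1 in suspension. Col1a1, a chain of the main fibril of the interstitium, measured 14.2, 20.999 and 14.4 CPM in the intact libraries and 4.28, 4.53 and 7.18 CPM in the suspensions. All intact values lay above all suspension values, with a log2 difference of 1.64 ± 0.22 (SE; adjusted p = 0.000655). Its partner Col1a2 measured 40.7, 53.1 and 50.2 CPM against 19.1, 16.2 and 38.4. The groups did not overlap, but suspension 3 came close to the intact range, and the log2 difference was 0.98 ± 0.27 (adjusted p = 0.0293). Col3a1, which co-assembles with type I in soft tissue, gave 26.6, 40.9 and 26.6 CPM against 8.92, 8.18 and 9.25 (log2 difference 1.85 ± 0.17, adjusted p = 7.05e-05). Col5a1, the chain that starts fibril assembly, gave 10.1, 15.1 and 11.7 CPM against 2.82, 2.32 and 3.21 (2.16 ± 0.18, adjusted p = 4.37e-05). These separations were complete, with intact replicate 2 holding the highest value of Col1a1, Col3a1 and Col5a1. Col5a3 differed by 1.58 ± 0.24 (adjusted p = 0.00166). Col5a2, the other chain of the common type V trimer, gave 45.6, 41.9 and 56.98 CPM in intact kidney and 58.9, 49.6 and 66.4 CPM in suspension, an overlap, with a log2 difference of -0.26 and an adjusted p of 0.18. Col27a1, a fibrillar collagen best known from cartilage, went the other way with 141, 159 and 111 CPM in intact kidney and 284, 230 and 222 CPM in suspension. It was higher in every suspension library (-0.83 ± 0.14, adjusted p = 0.00225).

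All 4 type VI chains tested were higher in intact kidney. Col6a3 measured 16.8, 26.4 and 17.3 CPM in intact libraries and 2.96, 2.85 and 5.28 CPM in suspensions, with a log2 difference of 2.46 ± 0.25 (adjusted p = 0.000147). The scarcer Col6a6 showed the largest difference of any member, from 2.70, 2.74 and 3.16 CPM to 0.409, 0.342 and 0.465 CPM (2.83 ± 0.21, adjusted p = 2.22e-05). In female SN_FANS_3x500g nuclei 92.8% of its UMIs (467) lay in proximal tubule-like barcodes. Col6a1 and Col6a2, which pair with an α3-like chain to make the filament, differed by 2.06 ± 0.23 and 1.77 ± 0.19 with adjusted p of 0.000211 and 0.000174. For these 4 chains no value in suspension reached the lowest intact value of the same gene. Of 5 FACIT collagens tested 3 were higher in intact kidney. Col14a1, which decorates fibrils, gave 34.0, 40.0 and 28.1 CPM against 7.37, 6.54 and 10.7 (2.07 ± 0.19, adjusted p = 6.66e-05). Col16a1 followed with 1.74 ± 0.16 (adjusted p = 7.17e-05), and Col12a1 differed less, by 0.34 ± 0.09 (adjusted p = 0.0233). The transmembrane Col23a1 gave 7.88, 3.95 and 6.63 CPM in intact kidney and 1.59, 1.29 and 1.18 CPM in suspension (2.20 ± 0.28, adjusted p = 0.000508), and the other 3 transmembrane members did not pass.

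Type IV differences were small though several passed the test. Col4a3 gave 583, 576 and 536 CPM in intact kidney and 437, 386 and 432 CPM in suspension (0.45 ± 0.07, adjusted p = 0.00188). Col4a1 gave 366, 424 and 391 CPM against 296, 309 and 332 (0.35 ± 0.07, adjusted p = 0.00538). The difference for Col4a2 was 0.35 ± 0.07 (adjusted p = 0.00856) and that for Col4a4 0.17 ± 0.05 (adjusted p = 0.0408). Col4a5 gave 76.5, 83.9 and 77.6 CPM against 77.6, 78.6 and 72.6, and the groups overlapped (log2 difference 0.07, adjusted p = 0.426). The multiplexins moved in opposite directions. Col15a1 was higher in intact kidney (22.4, 29.3 and 35.8 CPM against 10.4, 9.47 and 18.1, log2 difference 1.22 ± 0.24, adjusted p = 0.0059), and Col18a1, whose cleavage releases endostatin, was higher in suspension (324, 330 and 381 CPM against 449, 394 and 418, log2 difference -0.27 ± 0.07, adjusted p = 0.0239). Also higher in suspension were Col8a1, a short-chain collagen of vessel walls, at 17.8, 18.1 and 15.5 CPM against 27.3, 27.8 and 29.3 (-0.70 ± 0.08, adjusted p = 0.000374) and Col26a1 (-0.74 ± 0.16, adjusted p = 0.00968). The smallest calls rested on few libraries: Col1a2 lost its call without intact replicate 2 or 3 or without suspension replicate 1 or 2, with an adjusted p of up to 0.106, and gave an adjusted p of 0.0768 by DESeq2. Col4a4 and Col18a1 also lost theirs when single libraries were left out, with adjusted p of up to 0.144 and 0.096.

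**Figure D2:**
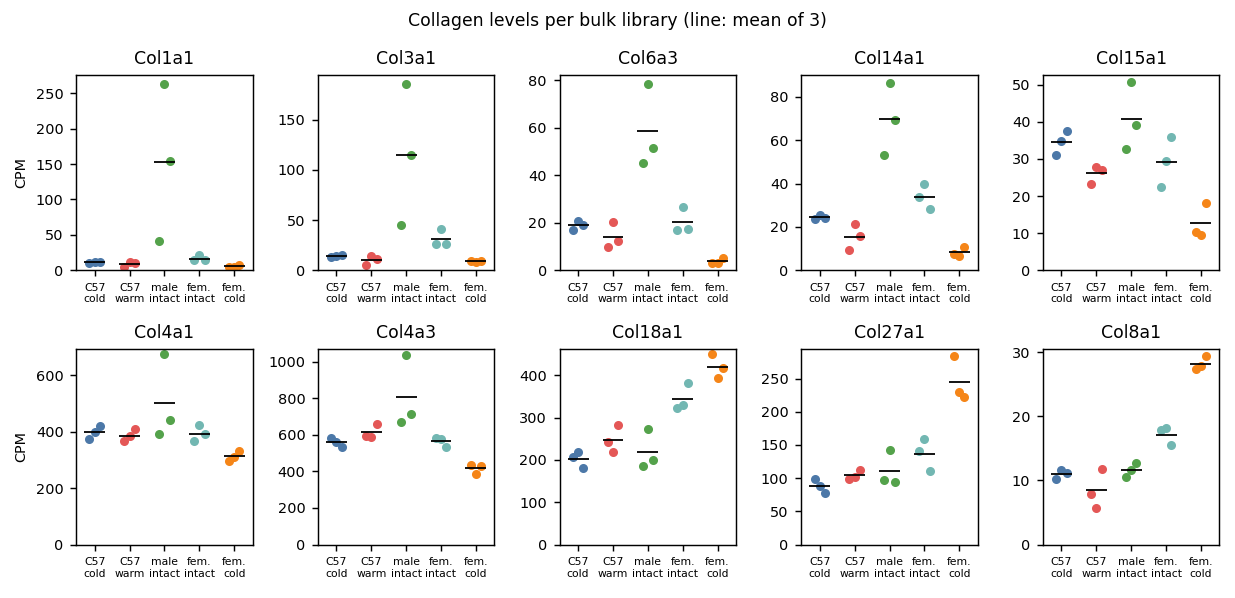
CPM of 10 collagens in each bulk library (points, linear axis from 0) with the mean of the 3 libraries of a group as a line, for cold and warm C57BL/6J suspensions, male Balb/c intact kidney, and female Balb/c intact kidney and cold suspension. In the female pair Col1a1 lies between 14.2 and 20.999 in intact kidney and at most at 7.18 in suspension, while Col27a1 is higher in suspension; male intact replicate 2 stands above its group for Col1a1 and Col3a1.

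Genes of other cell types moved in the same comparison. Of 17 fibroblast markers, a list without collagens, 11 were higher in intact kidney and 2 in suspension, and their summed level was 310 to 325 CPM against 167 to 214 CPM. Endothelial markers were higher in intact kidney for 11 of 14, mural markers for 6 of 18 with 8 higher in suspension, and podocyte markers for 0 of 13 with 5 higher in suspension. In the suspensions 11 of 15 macrophage markers, 11 of 12 lymphocyte markers tested and all 5 erythroid markers were higher. Mesothelial markers were higher in intact kidney for 3 of 3 tested (median log2 difference 1.75), urothelium markers for 5 of 8 (2.29) and thin limb markers for 6 of 10 (0.82). Connecting tubule markers were higher in suspension for 6 of 7, distal convoluted tubule markers for 4 of 7 and principal cell markers for 3 of 8, with 1 of those 8 higher in intact kidney. The part of these cell types in the collagen differences was not tested.

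Genes that work with collagens were looked at through 5 lists. Partners of the fibril had 15 of 19 tested genes higher in intact kidney and 2 lower, with a median log2 difference of 1.17. They included Prelp, a small leucine-rich proteoglycan, with 15.6 and 1.66 CPM (group means, 3.23 ± 0.17, adjusted p = 1.78e-06), and Bgn, biglycan, with 82.0 and 22.5 CPM. Basement membrane partners had 14 of 21 higher and 1 lower with a median of 0.35, led by Frem1 and with Nid1, which links laminin to type IV collagen, at 45.6 and 16.8 CPM. Genes for collagen processing had 13 of 32 tested higher and 1 lower (median 0.19). Loxl4, a lysyl oxidase relative that cross-links collagen, had 8.23 CPM in intact kidney and 0.983 CPM in suspension. Among receptors 4 of 8 tested were higher in intact kidney and 1 in suspension, with Ddr2, a tyrosine kinase that binds fibrillar collagen, at 10.5 and 2.28 CPM. Among 9 degradation genes tested 2 were higher in intact kidney, and Mmp13, a collagenase, was higher in suspension with a log2 difference of -1.298.

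Warm against cold suspension in C57BL/6J asks whether the way of digesting matters, and here collagens differed little in bulk. Of 27 members tested among 14102 genes, 2 were higher in warm suspension (5.42% of all genes) and 2 were higher in cold suspension (3.26% of all genes). Col26a1 gave 3.05, 4.36 and 1.43 CPM in cold and 9.09, 5.79 and 11.1 CPM in warm suspension, without overlap (warm minus cold 1.54 ± 0.32, adjusted p = 0.011). Col12a1 gave 18.1, 17.1 and 19.1 CPM in cold and 26.1, 23.4 and 24.9 CPM in warm (0.43 ± 0.10, adjusted p = 0.0218). Col15a1 went from 31.2, 34.8 and 37.6 CPM in cold to 23.4, 27.9 and 27.1 CPM in warm (-0.43 ± 0.11, adjusted p = 0.0357), and Col1a2 from 46.1, 54.9 and 48.6 to 32.7, 40.5 and 41.5 CPM (-0.41 ± 0.11, adjusted p = 0.0397). Col14a1 gave 23.7, 25.6 and 23.98 CPM in cold and 9.47, 21.6 and 15.7 CPM in warm and did not pass (adjusted p = 0.0666). None of the 13 fibroblast markers tested passed in either direction, while 6 of 13 podocyte markers and 2 of 14 endothelial markers were lower in warm suspension. Of 18 mural markers 6 were lower and 3 higher, and 7 of 15 macrophage markers were lower. Higher in warm suspension were 6 of 8 principal cell, 10 of 11 intercalated cell, 6 of 6 connecting tubule and 6 of 7 distal convoluted tubule markers tested. In fresh female Balb/c cells 70.0% of the Col26a1 UMIs (273) lay in principal-like barcodes, as did 60% (9 UMIs) in fresh warm C57BL/6J cells. Fresh C57BL/6J cells did not repeat the bulk direction of Col26a1. Cold libraries held 12, 20 and 0 of its UMIs and warm libraries 0, 15 and 0, too few for a test. Over all barcodes of these cells 3 of 8 principal cell markers were lower in warm cells. The part of the cell types named here in the collagen differences was not tested. Each of the 4 calls was lost when one or another library was left out, Col26a1 without warm replicate 3 (adjusted p = 0.0508), and the numbers of calls then ran from 0 to 3 in each direction. Among partner lists 3 of 20 basement membrane genes were higher in warm suspension and 0 lower.

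In the 10x data, barcodes were clustered within each set and named from marker lists. Barcodes left unnamed made up 19.3% of female cells, 18.5% of male cells, 27.3% of C57BL/6J cells, 9.38% of female nuclei and 17.1% of male nuclei. No fibroblast-like class was found among cells of any set, so fibroblast-like barcodes come from nuclei alone and could not be compared with cells. Clusters with both fibroblast and mural markers took the better-scoring name, so this does not show that fibroblasts were absent from cells. Female SN_FANS_3x500g nuclei held 575 fibroblast-like barcodes, the SN_FANS_1x2000g nuclei 953 and the SN_sucrose nuclei 1100, against 0 in the 3 libraries of fresh female cells. Endothelial-like barcodes numbered 826 in female cells and 2197 in SN_FANS_3x500g nuclei, mural-like 267 and 179, and podocyte-like 412 and 205. Male nuclei held no mural-like class. Levels below are UMIs per 10000 UMIs of a class in a library, written as per 10000, and the level in proximal tubule-like barcodes is given beside some of them, since free RNA reaches every barcode. Files of female and C57BL/6J cells list mitochondrial genes (31.3% to 33.6% of UMIs in fresh female cells, and 15.3% to 27.8% in their podocyte-like, mural-like and endothelial-like classes), and files of nuclei and male cells do not. Levels of female cells are therefore lower on this scale than on that of the tests, which used only genes listed in all libraries compared, and values over the other UMIs, a scale chosen after seeing the data, are given for some genes where both scales disagree.

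Fibroblast-like nuclei held most UMIs of Col14a1, Col6a3, Col1a2 and Col3a1. Collagens together took 59.99 per 10000 there in female nuclei, and 12 of the 29 collagens that reached 0.3 per 10000 in some class had their highest level in this class. Col14a1 measured 6.41, 9.68 and 8.63 per 10000 in the 3 female SN_FANS_3x500g libraries, against 0.017 to 0.034 in proximal tubule-like nuclei. Of all its UMIs in those libraries 67.0% (1062 UMIs) lay in the fibroblast-like class. Col6a3 measured 4.95, 4.61 and 4.76 per 10000, Col1a2 3.06, 3.78 and 4.11, and Col3a1 3.63, 3.92 and 2.59, and the class held 68.2%, 64.3% and 69.9% of their UMIs. Col1a1 was lower, at 0.712, 0.953 and 0.775 per 10000. The preparations gave like values for Col14a1, with 10.0, 9.89 and 8.13 in SN_FANS_1x2000g and 10.97, 9.07 and 8.31 in SN_sucrose nuclei. For Col1a1 the SN_sucrose libraries held 1.36, 1.33 and 1.39 per 10000, above all 6 sorted libraries of the female set, whose highest was 0.988. Type IV chains were high in the same class, with Col4a1 at 12.3, 8.45 and 9.27 and Col4a2 at 11.03, 8.11 and 9.24 per 10000, and the multiplexins Col15a1 and Col18a1 at 2.16 to 2.74 and 2.78 to 3.24. The class was not pure: its fibroblast marker list summed to 95.5 to 102 per 10000, the mural list to 39.8 to 44.6, the podocyte list to 33.0 to 41.8 and the endothelial list to 31.0 to 38.3.

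In male fibroblast-like nuclei (753 barcodes) Col4a1 was at 10.0, 7.74 and 6.43 per 10000, Col14a1 at 8.08, 5.49 and 6.20 and Col6a3 at 3.26, 2.74 and 2.32. Col4a3 and Col4a4 had means of 6.30 and 3.69 there, above Col1a2 and Col6a3, whereas in the female SN_FANS_3x500g class they had 2.22 and 2.24, below both. Col1a2 varied more between these libraries (4.43, 3.41 and 1.67), with the lowest value in replicate 3. Their proximal tubule list summed to 68.5 to 104 per 10000 and their fibroblast list to 48.1 to 88.5, so the data go against the label in part. The class with the highest level was the fibroblast-like one for 14 of 26 collagens in male nuclei.

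**Figure D3:**
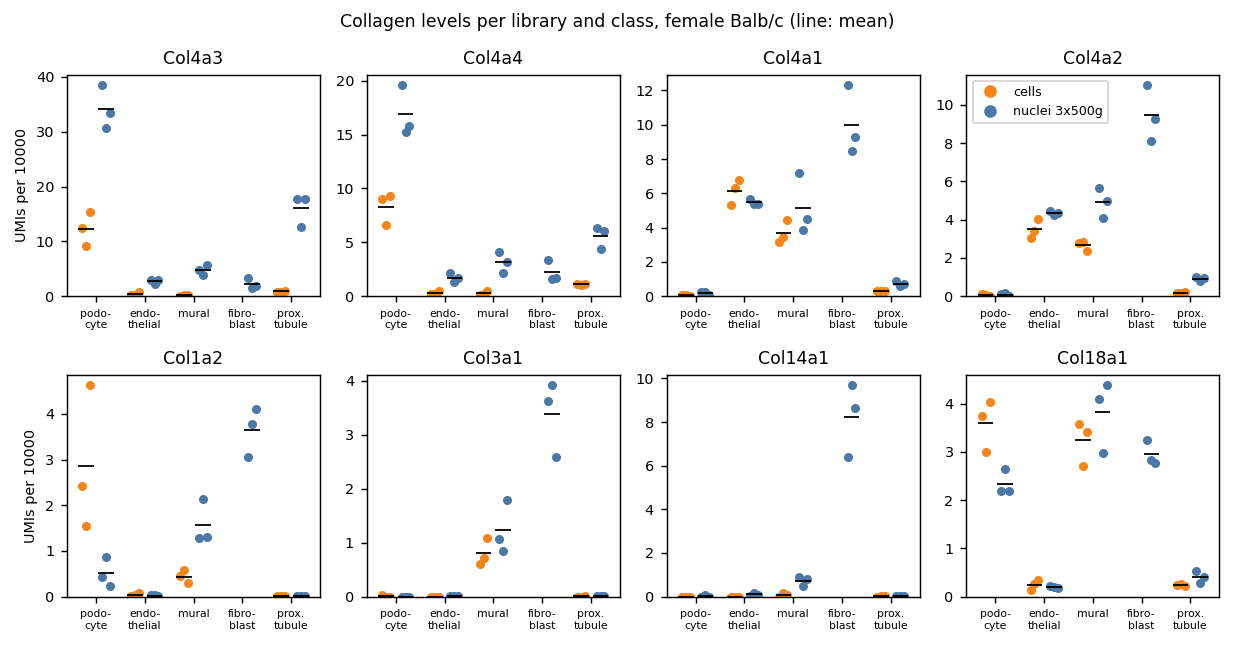
UMIs per 10000 in each library of female Balb/c fresh cells (orange) and SN_FANS_3x500g nuclei (blue) for 8 collagens in podocyte-like, endothelial-like, mural-like, fibroblast-like (nuclei only) and proximal tubule-like barcodes. Col14a1, Col3a1 and Col1a2 of nuclei are highest in the fibroblast-like class, Col4a3 and Col4a4 in the podocyte-like class, and Col1a2 of cells stands out in the podocyte-like class at 1.55 to 4.62.

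Podocytes, the cells that wrap the glomerular capillaries, had the highest pooled levels of Col4a3 and Col4a4 of any class in female cells and nuclei. They held 32.0% of the Col4a3 UMIs of fresh female cells and 1.89% of those of nuclei, against 45.2% and 67.0% in the far more numerous proximal tubule-like barcodes. In female cells Col4a3 measured 12.4, 9.21 and 15.4 per 10000 in podocyte-like barcodes and 0.857, 0.809 and 0.932 in proximal tubule-like ones. In nuclei it measured 38.5, 30.7 and 33.4, with 17.8, 12.6 and 17.7 in proximal tubule-like nuclei. Col4a4 measured 9.01, 6.61 and 9.26 in cells and 19.6, 15.3 and 15.8 in nuclei. Nuclei were above cells in all 3 libraries for both genes, and the podocyte-like level lay above the proximal tubule-like level in all 6 libraries for both. Thin limb-like nuclei came next for Col4a3 at a pooled 25.2 per 10000, and at 16.2 for Col4a4 they lay above podocyte-like nuclei of replicates 2 and 3. Tested within the class among 5568 genes (6 collagens), 4 were higher in nuclei (36.3% of all genes) and 2 in cells (45.3% of all genes): Col4a5 by 1.69 ± 0.18 (adjusted p = 1.96e-07), Col4a3 by 1.13 ± 0.17 (adjusted p = 1e-05) and Col4a4 by 0.69 ± 0.16 (adjusted p = 0.000963) on the log2 scale, beside a median of -0.36 over all genes. Col4a6, the scarce partner of Col4a5, was listed at 0 in the cells and measured 0.760, 0.632 and 1.09 per 10000 in nuclei. In these female nuclei 3 of 5 thick limb, 2 of 2 distal convoluted tubule and 2 of 2 parietal epithelial markers tested were higher than in cells. Of 8 proximal tubule markers 2 were higher and 3 lower. Lower too were 2 of 4 connecting tubule (1 higher) and 2 of 2 thin limb markers. In male animals Col4a3 gave 9.32, 7.70 and 7.72 in cells and 18.4, 18.3 and 24.1 in nuclei, and 3 of 5 collagens tested were higher in nuclei (29.2% of all genes) with Col4a4 at 1.78 ± 0.29 and Col4a3 at 1.57 ± 0.26, beside a median of -1.48 over 1149 genes. For male genes in the longest of 3 bins of gene span the median was 2.42, and for the 4 collagens among them 1.67. In male podocyte-like nuclei 7 of 8 proximal tubule markers tested were higher than in cells (median log2 difference 3.57). Male proximal tubule-like nuclei held Col4a3 at 11.4 to 15.3 per 10000. The part of tubule RNA in the female and male values was not tested. None of these 3 male calls stood without a filter on low counts (adjusted p of 0.0517 to 0.313), that of Col4a5 was lost without nuclei replicate 1 (adjusted p = 0.0784), and male nuclei held only 93 podocyte-like barcodes.

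Col1a2 behaved apart from its fibril partners in podocyte-like cells. In female cells it measured 2.43, 1.55 and 4.62 per 10000 there, against 0.00264 to 0.00575 in proximal tubule-like cells, and 84.1% of all its UMIs in fresh female cells (450 UMIs) lay in this class. Col1a1 had 0 UMIs in the podocyte-like class in all 3 libraries, which allows a level of up to 0.0192 per 10000 (3 UMIs over the group's total, counting error only), though it was measured in mural-like cells of the same libraries. Col3a1 had 0.024 per 10000 in 1 library and 0 in the other two, and Col6a3 had 0 in all. The Col1a2 level recurred in the other cell sets. It measured 3.02, 2.59 and 2.36 in male podocyte-like cells, with 87.8% of its UMIs (79), and 3.05, 2.24 and 2.44 in cold C57BL/6J podocyte-like cells. Col1a1, Col3a1 and Col6a3 stood at 0 in all male cell libraries and were not listed for C57BL/6J fresh cells, so the contrast with them could not be seen there. Podocyte-like female nuclei gave 0.430, 0.862 and 0.234 and held 4.35% of the gene's UMIs. The fall from cells to nuclei passed the test in females (-2.80 ± 0.41, adjusted p = 8.19e-06). In males it was called too (-1.31 ± 0.56, adjusted p = 0.0337), as were 54.2% of all genes in that direction, and it did not exceed the median of -1.48 over all genes. The male call was lost without nuclei replicate 1 (adjusted p = 0.12) or 3 (adjusted p = 0.0889) and with doublets removed (adjusted p = 0.321). Within the podocyte-like class the fibroblast marker list summed to 9.76 to 11.1 per 10000 in female cells and 1.87 to 2.64 in nuclei, and the podocyte list to 208 to 234 and 1214 to 1357. The part of the fibroblast-list genes in the Col1a2 level was not tested.

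Col18a1 was also lower in podocyte-like nuclei than cells in females, at 3.75, 3.01 and 4.03 per 10000 in cells and 2.18, 2.64 and 2.18 in nuclei (-0.97 ± 0.18, adjusted p = 9.06e-05), though with SN_FANS_1x2000g nuclei the adjusted p was 0.0652. In males it gave 5.54, 4.08 and 5.58 in cells and 2.41, 3.41 and 2.92 in nuclei, without overlap, and did not pass (-0.51, adjusted p = 0.204).

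Mural-like barcodes, which take in pericytes, smooth muscle and mesangial cells, held most UMIs of Col1a1, Col3a1 and Col6a3 in fresh female cells, while those of Col1a2 and Col14a1 lay mostly in the podocyte-like and the macrophage, monocyte and dendritic-like class. In fresh female cells 83.3% of the UMIs of Col3a1 (70 UMIs), 79.0% of those of Col1a1 and 82.7% of those of Col6a3 (43 UMIs) lay in this class. Col1a1 measured 0.551, 0.428 and 0.626 per 10000 in cells and 0.0672, 0.244 and 0.199 in nuclei, with no overlap, and did not pass the filter on low counts. Col3a1 measured 0.601, 0.714 and 1.08 in cells and 1.07, 0.854 and 1.79 in nuclei, overlapping. Of 12 collagens tested among 4193 genes, 8 were higher in nuclei (42.4% of all genes) and 1 in cells (41.2% of all genes), beside a median of 0.09 over all genes (0.63 with library totals alone). Col4a3 went from 0.1002, 0.179 and 0.167 to 4.84, 3.84 and 5.68 per 10000 (4.13 ± 0.32, adjusted p = 1.48e-10), and Col8a1 from 0.0751, 0.179 and 0.250 to 2.15, 2.99 and 1.99 (3.06 ± 0.38). Col1a2 was higher in nuclei (0.96 ± 0.33, adjusted p = 0.0112), at 0.451, 0.571 and 0.292 in cells and 1.28, 2.13 and 1.30 in nuclei. That call was lost by DESeq2 (adjusted p = 0.124), without cells replicate 3 (adjusted p = 0.11) and without nuclei replicate 2 (adjusted p = 0.161). Col18a1, at 3.58, 2.71 and 3.42 in cells and 4.10, 2.99 and 4.39 in nuclei, and at 4.96, 3.65 and 4.47 in cells without mitochondrial UMIs, overlapped on both scales. The fit called it lower in nuclei (-0.66 ± 0.21, adjusted p = 0.00548), a call that was lost with library totals alone (adjusted p = 0.596). In the mural-like nuclei the fibroblast list summed to 71.9 to 87.9 per 10000 and the mural list to 52.0 to 57.4, whereas in cells the lists summed to 32.1 to 41.8 and 356 to 374. The data thus go against the label for the nuclei. Podocyte-list genes also differed (2.42 to 2.96 in cells, 14.6 to 19.2 in nuclei). Of the markers tested 3 of 4 thick limb, 2 of 2 distal convoluted tubule and 3 of 4 endothelial ones (1 lower) were higher in nuclei. Of 7 proximal tubule markers 2 were higher and 2 lower. Lower in nuclei were 2 of 3 connecting tubule and 2 of 3 thin limb markers, with 1 higher in each list. The part of these other cell types in the mural-like values was not tested.

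Endothelial-like barcodes carried the common basement membrane chains. Col4a1 measured 5.34, 6.32 and 6.80 per 10000 in female cells and 5.68, 5.37 and 5.37 in nuclei, and Col4a2 3.04, 3.40 and 4.06 in cells and 4.48, 4.22 and 4.33 in nuclei. Without mitochondrial UMIs the cells gave 7.24, 8.39 and 8.80 for Col4a1, above all nuclei, and 4.11, 4.52 and 5.25 for Col4a2, overlapping. Of 12 collagens tested among 8915 genes, 6 were higher in nuclei (40.7% of all genes) and 3 in cells (38.3% of all genes), beside a median of 0.09 over all genes. Lower in nuclei were Col4a1 (-0.74 ± 0.11, adjusted p = 3.03e-06), Col18a1 (-0.92 ± 0.30, adjusted p = 0.00928) and Col4a2 (-0.26, adjusted p = 0.0494), and the last was lost by DESeq2 (adjusted p = 0.102) and without any 1 of 5 libraries. Higher were Col4a3 (0.307, 0.204 and 0.765 in cells, 2.99, 2.29 and 2.88 in nuclei, log2 difference 2.11 ± 0.24, adjusted p = 5.24e-08), Col4a4 (1.98), Col5a2 (2.27) and Col8a1 (3.06). Col4a5 and Col4a6 were called as well but stood at 0 in 1 or all cell libraries. Some tubule markers were also higher in these nuclei, beside 40.7% of all genes. They were 7 of 12 proximal tubule (2 lower), 4 of 5 distal convoluted tubule and 4 of 8 thick limb markers tested (1 lower). Other lists went the other way, with 3 of 5 connecting tubule (2 higher) and 3 of 4 thin limb markers (1 higher) lower in nuclei. Proximal tubule-like barcodes held Col4a3 at 12.6 to 17.8 per 10000 in nuclei and 0.809 to 0.932 in cells. The part of tubule RNA in the endothelial-like values was not tested. Col15a1 was the member most tied to this class in cells, with 81.8% of its UMIs (144 UMIs), at 0.646, 0.502 and 1.20 per 10000. In nuclei it measured 0.858, 1.05 and 0.796, and 36.7% of its UMIs lay in the endothelial-like and 31.8% in the fibroblast-like class, and it did not pass between cells and nuclei (adjusted p = 0.142). Col18a1 measured 0.145, 0.251 and 0.349 per 10000 in cells and 0.228, 0.191 and 0.172 in nuclei, overlapping. Its call was lost without cells replicate 3 (adjusted p = 0.129). In male animals 4 of 6 collagens tested were higher in nuclei (45.4% of all genes), each with a cell library at 0, and 0 were higher in cells (29.8% of all genes), also 0 at an unadjusted p under 0.05 (30.5%) and by DESeq2 (23.9%). Male Col4a1 measured 3.25, 3.27 and 3.57 in cells and 3.74, 2.25 and 2.45 in nuclei, overlapping. The male endothelial-like nuclei held a proximal tubule list sum of 110 to 155 per 10000 against an endothelial one of 56.3 to 113, higher in 2 of 3 libraries, so the data go against the label in part.

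Some collagens had their highest class among epithelial barcodes other than podocyte-like ones. In female nuclei Col26a1 was highest in principal-like barcodes (8.91 per 10000), Col27a1 in connecting tubule-like (3.75), Col5a2 in thick limb-like (3.30), Col18a1 in parietal epithelial-like (5.05) and Col4a5 in urothelium-like ones (6.73, with Col4a6 at 6.26). In female cells Col26a1 (1.18), Col27a1 (0.540), Col5a2 (0.813) and Col18a1 (6.27) had the same leading classes. Col4a5 was highest in podocyte-like cells (1.10), but no urothelium-like class was available among these cells, so its leading classes cannot be compared. Col14a1 differed, because 77.6% of its UMIs in fresh female cells (114 UMIs, 0.636 per 10000) lay in the macrophage, monocyte and dendritic-like class, and in nuclei 1.77% did. These orders describe pooled class levels and carry no test.

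Over all barcodes, collagens took more UMIs per 10000 in nuclei than in cells in both Balb/c sets. In females the sums were 25.5 to 31.7 in SN_FANS_3x500g nuclei and 4.35 to 5.36 in fresh cells (6.51 to 7.80 without mitochondrial UMIs). In males they were 26.3 to 32.7 and 5.41 to 7.02. Nuclei were counted over exons and introns and cells over exons only, so these sums are not like measures of message. The median log2 difference of all genes (nuclei minus cells) was 0.10 in females and 0.84 in males with the scaling used and 0.54 and 1.01 with library totals alone, so values are to be read against these. Cell type markers moved as well. In females 9 of 13 podocyte (3 higher), 10 of 17 mural (5 higher), 13 of 14 macrophage and 10 of 10 lymphocyte markers tested were lower in nuclei. Of 11 fibroblast markers 4 were higher and 6 lower. In males 11 of 13 podocyte markers were lower in nuclei and 2 higher, and 8 of 11 fibroblast markers were higher and 1 lower. Of 14 proximal tubule markers 10 were higher and 2 lower, and of 16 mural markers 7 were higher and 5 lower. Macrophage markers were lower for 10 of 13 (1 higher) and intercalated cell markers for 8 of 11 (1 higher). Their part in the differences over all barcodes was not tested. In females 23 collagens were tested among 13762 genes, with 15 higher in nuclei (43.8% of all genes; 4 of them with a library at 0) and 4 higher in cells (41.0% of all genes). Col4a3 went from 0.882, 0.834 and 1.18 per 10000 in cells to 14.4, 10.2 and 13.8 in nuclei (2.74 ± 0.19, adjusted p = 1.11e-06), and Col4a5 from 0.162, 0.138 and 0.153 to 2.12, 2.14 and 2.26 (2.84 ± 0.08, adjusted p = 8.07e-09). Cell and nucleus libraries did not overlap for either, and the interstitial Col6a3 followed, from 0.00724, 0.00754 and 0.0102 to 0.0698, 0.123 and 0.0992 (2.53 ± 0.26, adjusted p = 1.7e-05). Col14a1 and Col3a1 were higher by 1.88 ± 0.41 (adjusted p = 0.00256) and 1.31 ± 0.33 (adjusted p = 0.00534). Higher in cells were Col12a1 (-1.19, adjusted p = 0.000198), Col1a2 (-1.17 ± 0.42, adjusted p = 0.0289) and Col18a1 (-0.79 ± 0.16, adjusted p = 0.00149). Both scales disagree for Col18a1, which measured 0.821, 0.679 and 0.730 per 10000 in cells (1.24, 1.02 and 1.06 without mitochondrial UMIs) and 1.07, 0.765 and 0.748 in nuclei, overlapping on either scale. Col12a1 measured 0.0605, 0.0474 and 0.0529 in cells and 0.0369, 0.0552 and 0.0499 in nuclei, overlapping, and 0.0912, 0.0709 and 0.0771 in cells without mitochondrial UMIs, above all these nuclei. Col1a2 measured 0.0682, 0.0431 and 0.1702 in cells and 0.0576, 0.108 and 0.0768 in nuclei, overlapping, and its sign turned with SN_sucrose nuclei (0.26, adjusted p = 0.544), which held 0.207 to 0.229. Col4a1 was called higher in cells (-0.20, adjusted p = 0.044) and higher in nuclei with SN_sucrose nuclei (0.27, adjusted p = 0.0035), and it was also higher in SN_FANS_3x500g nuclei with library totals alone (0.23, adjusted p = 0.0146), so its direction turned with the scaling and with the preparation. Without mitochondrial UMIs it measured 0.934, 0.851 and 0.954 per 10000 in cells and 1.13, 1.03 and 1.06 in SN_FANS_3x500g nuclei. The Col1a2 call was lost with library totals alone (adjusted p = 0.158), and without cells replicate 3 or nuclei replicate 1 or 3 the adjusted p was 0.114, 0.109 and 0.0917. In males 31 were tested among 14027 genes, with 29 higher in nuclei (53.6% of all genes) and 1 higher in cells (27.6% of all genes). Of those 29, 19 were listed at 0 in all male cell libraries, and among the 11 with counts in every library 9 were higher in nuclei. Col18a1, at 1.05, 0.987 and 1.31 per 10000 in cells and 0.799, 0.862 and 0.729 in nuclei, was the 1 higher in cells (-0.64 ± 0.13, adjusted p = 0.00158).

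Gene span moved with these differences. Cells had been counted over exons and nuclei over exons and introns. When female genes were split into 3 equal bins by the length of the gene, with bounds at 13.69 and 41.16 kb, the median log2 difference (nuclei minus cells) of all genes was -1.55, -0.08 and 1.60 from the shortest to the longest bin. No tested collagen lay in the shortest bin, 5 lay in the middle one and 18 in the longest, whose collagen median was 1.62. With counts in every library it was 1.43. Within endothelial-like barcodes the longest bin had a median of 1.03 for its 12 collagens and 1.76 for all genes, within podocyte-like barcodes 1.13 for 5 collagens and 1.96, and within mural-like barcodes 1.72 for 9 collagens and 2.15. Over collagens counted in every library the medians of the longest bin were -0.07 (9 collagens) in endothelial-like, 0.91 (4) in podocyte-like and 1.71 (8) in mural-like barcodes, so the endothelial-like one was then near 0. The middle bin over all barcodes had a median of 1.31 for its 5 collagens and -0.24 for the 3 counted in every library. The part of gene span in single differences was not tested.

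**Figure D4:**
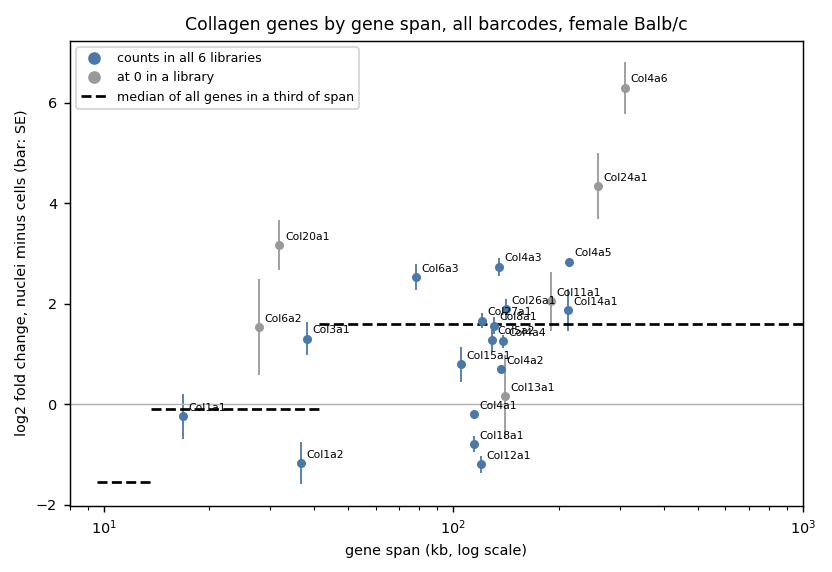
Log2 difference in UMIs (nuclei minus cells, female Balb/c) against gene span in kb (log axis) for the 23 collagens tested over all barcodes, with bars of 1 standard error; grey points had a library at 0, and dashed lines give the median of all genes in each of 3 bins of gene span. The dashed medians climb with span, from -1.55 to 1.60, and the 18 collagens of the longest bin lie on both sides of its line.

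The head-to-head type IV pairs differed in their balance between kinds of library. Counts of Col4a3 over those of Col4a4 gave 0.866 to 1.20 in bulk, 0.603 to 0.781 in fresh female cells and 1.58 to 2.01 in nuclei of the 3 female preparations. Males gave 0.590 to 0.871 in cells and 1.61 to 1.84 in nuclei. Fresh C57BL/6J cells gave 0.683 to 1.02. Every cell library lay below every nucleus library. Cells and bulk overlapped in C57BL/6J, while in each Balb/c set every fresh cell library lay below all bulk libraries of that set. Col4a1 over Col4a2 gave 1.34 to 1.68 in bulk, 1.69 to 1.86 in fresh female cells and 0.933 to 0.973 in SN_FANS_3x500g nuclei. Males gave 1.29 to 1.70 in cells and 0.938 to 1.03 in nuclei, and fresh C57BL/6J cells 1.44 to 1.81, so that cells of both sets overlapped bulk and male cells reached the range of SN_sucrose nuclei. Here the nuclear preparations stood in steps, with 1.09 to 1.19 in SN_FANS_1x2000g and 1.25 to 1.30 in SN_sucrose nuclei. Col4a5 exceeded Col4a6 in every library with counts of both. Count ratios depend on the lengths of the messages and on introns, so they are read only between libraries and were not tested.

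Warm and cold fresh cells of C57BL/6J differed in collagens over all barcodes. Of 12 members tested among 12061 genes, 0 were higher in warm cells (7.86% of all genes) and 5 were lower (7.07% of all genes), by edgeR's adjusted p. At an unadjusted p under 0.05 the counts were 0 (16.0% of all genes) and 8 (15.5%), and DESeq2 called 0 higher (7.21%) and 3 lower (4.76%). Col18a1 measured 0.454, 0.538 and 0.432 per 10000 in cold and 0.211, 0.258 and 0.229 in warm cells (-0.99 ± 0.15, adjusted p = 0.00372). Col4a3 gave 0.804, 0.728 and 0.658 in cold and 0.495, 0.487 and 0.495 in warm cells (-0.54 ± 0.10, adjusted p = 0.00891). Both sets of values were fully apart, and Col4a5 and Col4a2 were called by less (adjusted p = 0.0293 and 0.0485) and lost without single libraries or by DESeq2 (0.0566 and 0.152). Col1a2 was listed at 0.0904, 0.112 and 0.118 in cold cells and at 0, 0.0064 and 0 in warm ones. Podocyte-like barcodes numbered 53, 147 and 149 in the cold libraries and 0, 5 and 1 in the warm ones, and all 13 podocyte markers were lower in warm cells over all barcodes. So were 8 of 15 mural, 3 of 7 fibroblast, 4 of 11 intercalated cell, 3 of 8 principal cell and 2 of 14 endothelial markers tested. Proximal tubule markers were higher in warm cells for 5 of 14 with 1 lower, and thick limb markers for 3 of 8 with 0 lower. Col18a1 was highest in parietal epithelial-like cold cells, at a pooled 4.95 per 10000. It stood at 2.54 in podocyte-like, 2.48 in mural-like, 2.41 in intercalated-like and 2.11 in principal-like cold cells. Of 5 parietal epithelial markers tested over all barcodes 1 was higher in warm cells and 0 lower. In cold cells the podocyte-like class held 21.3% of all collagen UMIs. The part of these cell types in the differences was not tested, and too few warm podocyte-like and mural-like barcodes were left for a test within either class. Within endothelial-like barcodes 0 of 5 collagens passed in either direction by edgeR (1.36% of all genes were higher in warm and 0.276% lower) or DESeq2 (0.955% and 0.191%). At an unadjusted p under 0.05 there were 0 higher (6.67% of all genes) and 1 lower (5.48%). Col4a1 there measured 2.19, 2.19 and 2.29 per 10000 in cold and 2.08, 1.90 and 1.61 in warm cells.

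Stored suspensions held other amounts of collagen message, given here as values. In C57BL/6J the collagen sum was 2.98 to 3.32 per 10000 in cold fresh cells, 3.24 to 3.69 after cryopreservation and 1.76 to 1.91 after methanol fixation, and in warm cells 1.98 to 2.28, 3.26 to 4.49 and 0.972 to 1.23. Without mitochondrial UMIs, whose share was higher in fresh cells, the cold values were 4.04 to 4.81, 3.83 to 4.33 and 2.21 to 2.29, and fresh and cryopreserved cold cells overlapped on both scales. The warm values without them were 2.48 to 3.08, 3.98 to 5.41 and 1.14 to 1.49. In females it was 4.35 to 5.36 fresh and 6.74 to 8.07 after cryopreservation, and 6.51 to 7.80 and 10.3 to 12.4 without mitochondrial UMIs. Over all barcodes values were higher after cryopreservation in all 3 female libraries for Col18a1, with 0.821, 0.679 and 0.730 fresh and 2.30, 1.70 and 1.84 cryopreserved, and for Col4a1, with 0.620, 0.568 and 0.655 and 1.52, 1.31 and 1.44. Within classes the collagen sum went different ways. It was 10.2 to 14.1 per 10000 fresh and 7.33 to 8.47 cryopreserved in endothelial-like, 21.6 to 34.7 and 17.8 to 21.4 in podocyte-like, and 12.4 to 15.1 and 10.2 to 12.5 in mural-like cells. In proximal tubule-like cells it was 3.01 to 3.24 fresh and 3.39 to 4.45 cryopreserved, higher in all 3 libraries, and in parietal epithelial-like cells 14.02 to 16.5 and 13.5 to 17.6, overlapping. Without mitochondrial UMIs fresh and cryopreserved cells were apart in the endothelial-like class (13.8 to 18.2 and 11.3 to 12.4) and the proximal tubule-like class (4.61 to 4.99 and 5.61 to 7.36) and overlapped in the podocyte-like and mural-like ones. Endothelial-like Col4a1 was 5.34 to 6.80 fresh and 4.12 to 4.57 cryopreserved. Proximal tubule-like barcodes were 35.0% of fresh and 4.00% of cryopreserved ones, and the part of these shares was not tested. For Col4a3 they were 0.882, 0.834 and 1.18 fresh and 0.632, 0.899 and 0.583 cryopreserved, overlapping.

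A few members differed between the sets of animals by amounts far beyond the spread within a set. Col6a6 measured 126, 174 and 179 CPM in male intact kidney, 2.70 to 3.16 in female intact kidney and 3.67 to 8.39 in C57BL/6J suspensions. In nuclei, too, it was 2.07, 3.28 and 4.17 per 10000 in males over all barcodes and 0.0616, 0.0556 and 0.0540 in females, and in male proximal tubule-like nuclei it reached 4.82 against 0.0988 in females. Col19a1 followed, with 12.7, 9.88 and 11.9 CPM in male intact kidney and 0.0965 to 0.206 in female intact kidney, and 1.17 and 0.00868 per 10000 in male and female proximal tubule-like nuclei. In bulk Col4a6 instead set C57BL/6J apart, at 5.38 to 7.87 CPM against 0.227 to 0.614 CPM in Balb/c of either sex. The 10x data did not repeat this order, since Col4a6 was not listed for C57BL/6J cells, and C57BL/6J nuclei were not made. It measured 0.297, 0.318 and 0.313 per 10000 over all barcodes of female SN_FANS_3x500g nuclei and 0.181, 0.178 and 0.156 in male ones. Among the male intact kidneys replicate 2, the shallowest library, stood apart for type I and III: Col1a1 gave 41.5, 263 and 154 CPM, Col1a2 63.7, 260 and 142, and Col3a1 44.7, 186 and 115. For Col6a6 and Col19a1, sex, age, breeding and library preparation differ between male and female Balb/c, and strain, allele, age and intact kidney against suspension between male Balb/c and C57BL/6J. The bulk Col4a6 levels of C57BL/6J and Balb/c differ along with strain, allele and age, and with the other factors named for each pair of sets. These factors, the bulk read length and the time of the experiment cannot be told apart here.

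**Figure D5:**
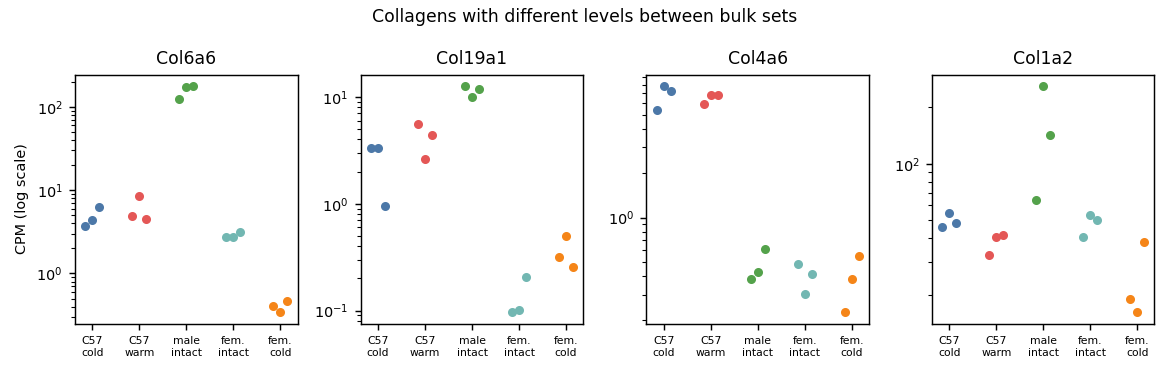
CPM on a log axis of Col6a6, Col19a1, Col4a6 and Col1a2 in the 15 bulk libraries, 1 point per library, grouped by C57BL/6J cold and warm suspension, male Balb/c intact kidney, and female Balb/c intact kidney and cold suspension. Col6a6 and Col19a1 are highest in the male intact kidneys (126 to 179 and 9.88 to 12.7), and Col4a6 in C57BL/6J (5.38 to 7.87).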

How the data were processed

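The authors deposited counts of reads per gene for 15 bulk libraries (Trim Galore, TagDust2, STAR on GRCm38, Picard MarkDuplicates, featureCounts; the strand setting is not given in the sources used here) and UMI counts per gene and barcode for 39 10x libraries (Cell Ranger, mm10), counted over exons in cells and over exons plus introns in nuclei, and with most genes seen in fewer than 10 barcodes of a library at 0. Levels are CPM or UMIs per 10000. Barcodes were clustered per set with leidenalg 0.10.2 on shared neighbours (2000 variable genes without collagens, 30 components, 20 neighbours, Leiden resolution 2). Clusters with fibroblast or mural as best or strong second class were clustered again at resolution 1. Clusters were named from marker lists (at least 3 markers, each in 10% of barcodes and 1.5-fold up). These classes are rebuilt and can differ from the study's. Doublets were kept, with their removal as an alternative. UMIs were summed per library and class (at least 10 barcodes) and tested with edgeR 4.0.16 quasi-likelihood fits, TMM scaling and filterByExpr within the groups compared, at an adjusted p of 0.05 (Benjamini-Hochberg), with DESeq2 1.42.0 as an alternative (R 4.3.3). Exon length (the union of a gene's annotated exons) and gene span come from GENCODE vM21. On simulated data with 200 changed genes, log2 changes of 2 and 1 were recovered in 92% and 78% of genes for all female barcodes (13643 genes), 81% and 51% for female podocyte-like (5014) and 81% and 42% for mural-like barcodes (3547), and 74% and 16% for male endothelial-like ones (4218), with 3.95% to 8.89% false calls. Not run for lack of barcodes were tests within fibroblast-like (all sets), male mural-like, and C57BL/6J mural-like and podocyte-like barcodes. The genes named were a fixed set of chains of types I, III, IV, V, VI, XIV, XV, XVIII, XXIII and XXVII, up to 10 members called per direction, and the highest member of each structural class. The members and gene lists were chosen with earlier results of these data known.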

Additional observations from a re-analysis of the deposited data

Results flagged for a closer look

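Col18a1, Col5a2 and Col12a1 had every library of a group above the other group in one condition and below it in another. The difference between the conditions was not tested in any of them. For Col18a1 over all barcodes of C57BL/6J, warm minus cold was -0.242 UMIs per 10000 in fresh cells (warm 0.211 to 0.258, cold 0.432 to 0.538), 0.292 after cryopreservation (warm 0.880 to 1.29, cold 0.666 to 0.832) and -0.187 after methanol fixation (warm 0.127 to 0.163, cold 0.316 to 0.349). For Col5a2 the values were -0.0328 in fresh cells (warm 0.0267 to 0.0619, cold 0.0622 to 0.0894), 0.118 after cryopreservation (warm 0.0996 to 0.151, cold listed at 0 in all libraries) and -0.0476 after methanol fixation (warm 0 to 0.0283, cold 0.0371 to 0.0797). For Col12a1 in proximal tubule-like barcodes, nuclei minus cells was -0.0226 in females (nuclei 0.0222 to 0.0312, cells 0.0449 to 0.0517) and 0.0352 in males (nuclei 0.0199 to 0.0498, cells listed at 0 in all libraries). Most genes in fewer than 10 barcodes of a library read 0 in these files.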

How the results depend on the processing

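Counts of collagens called in a direction stayed equal to or within 1.5 times of the reported count in 254 of 316 settings. A count of 0 that stayed 0 is included. Named genes kept their sign and their status, called or not called, in 1602 of 1781, so genes never called are included. Summed class levels held in 33 of 37. The other levels moved when mitochondrial genes were left out of the UMIs (chosen after seeing the data): mural-like 18.2 in female and 8.87 in C57BL/6J cells, endothelial-like 15.6 and 6.68 per 10000. Calls beyond a log2 difference of 1 were 0 for bulk female and C57BL/6J suspensions (higher cold) and for cells in the male all-barcode, mural-like and female endothelial-like comparisons, 1 for bulk warm, cold C57BL/6J cells and female podocyte-like cells, and 2 for all female cells. DESeq2 gave 1 for bulk warm and 3 for cold C57BL/6J cells. Without a filter on low counts the calls were 5 and 5 for bulk warm and cold, 14 and 2 for mural-like nuclei and cells, 7 for female podocyte-like nuclei, 1 and 2 for male podocyte-like nuclei and cells, and 10 for female and for male endothelial-like nuclei. With genes counted in every library they were 9 for all male nuclei, 3 for mural-like cells and 0 for male endothelial-like nuclei. For all female cells, library totals, SN_FANS_1x2000g, SN_sucrose or all 9 nuclei libraries gave 2. Mural-like cells had 2 with RLE size factors, SN_FANS_1x2000g, all 9 nuclei libraries or Leiden resolution 1, and 0 with library totals. SN_FANS_1x2000g gave 1 for female podocyte-like and endothelial-like cells, all 9 nuclei libraries 1 for the latter, and doublet removal 0 for male podocyte-like cells.
Leaving out single libraries gave 15 to 17 (intact) and 3 to 5 (cold) in bulk females, 0 to 3 either way in bulk C57BL/6J, 15 to 16 and 2 to 3 for all female nuclei and cells, 22 to 33 and 1 to 2 for males, 0 to 0 (warm) and 3 to 6 (cold) in C57BL/6J cells, 8 to 12 and 1 to 3 in mural-like, 4 to 6 and 2 to 2 in female podocyte-like, 2 to 3 and 0 to 1 in male podocyte-like, 5 to 7 and 1 to 3 in female endothelial-like, 3 to 7 and 0 to 0 in male endothelial-like, and 0 to 0 either way in C57BL/6J endothelial-like barcodes.
Signs reversed as follows, in log2 difference. Over all female barcodes, Col1a1 gave 0.20 (library totals), 0.62 (SN_FANS_1x2000g), 1.64 (SN_sucrose) and 0.86 (all 9), Col1a2 0.26 (SN_sucrose), and Col4a1 0.23, 0.0803, 0.27 and 0.0584 in the order given for Col1a1. In mural-like barcodes Col3a1 gave 0.27, 0.49, 0.59 and 0.10, Col4a1 0.18, 0.0025 and 0.34, and Col4a2 0.53, 0.20 and 0.35, with 0.0025 without doublets and -0.27 to 0.0603 without single libraries. In male endothelial-like barcodes Col4a1 gave 0.17 (DESeq2), 0.17 (RLE), 0.12 (no filter) and 0.14 (counts in every library), and Col4a2 0.23, 0.24, 0.20 and 0.21, with -0.27 to 0.34 and -0.26 to 0.49 without single libraries. Without single libraries the ranges ran from -0.58 to 0.0724 for female endothelial-like Col15a1 and -0.19 to 0.38 for bulk female Col4a6, and in bulk C57BL/6J from -0.11 to 0.0131 for Col4a2, -0.0135 to 0.0619 for Col4a5, -0.26 to 0.0378 for Col4a6, -0.32 to 0.0071 for Col5a1 and -0.15 to 0.43 for Col5a3. The cause was not tested.
Pairing of C57BL/6J cells by a number in the barcode headers was checked after the data were seen: deviations of same-numbered libraries correlated at 0.176, 0.164 and -0.00841 over all barcodes, so not every pair reached 0.1 and pairing was not shown. With the replicate block the calls over all barcodes were 0 higher and 5 lower in warm cells, and 0 and 0 in endothelial-like ones, and not every library correlated best with its own number. Most genes in fewer than 10 barcodes of a library read 0, which limits what can be said of scarce chains.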
